A study of Homo sapiens with 16 samples.

Results

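NF-kB is a family of transcription factors that B cells and plasma cells use to answer survival and inflammatory signals. Its subunits wait in the cytoplasm bound to IkB inhibitors. In the canonical branch, receptor signals lead to the breakdown of IkB alpha and free dimers that contain the NFKB1 product. In the alternative branch, the kinase NIK (MAP3K14) drives the processing of the NFKB2 product, the partner of RELB, and TRAF3 together with BIRC3 keeps NIK scarce. NFKBIA, TNFAIP3, TRAF1 and CCL3 are textbook targets that the pathway switches on, and mutations in its regulators are common in multiple myeloma, a cancer of plasma cells.

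The 10 genes described here include the subunits NFKB1, NFKB2 and RELB, the inhibitors NFKBIA and TNFAIP3, and the targets TRAF1 and CCL3. The rest are MAP3K14, which encodes NIK, and the NIK regulators TRAF3 and BIRC3. All 10 were chosen by name, with earlier results of these data known. Of these 10, 9 had a probe set of their own on the array, out of 18417 genes with such a probe set, and all 9 passed the filter on low values, as did 12639 genes in total. BIRC3 was not measured here. NFKBIA and the other 8 were each read from 1 probe set, the one with the highest mean over the 16 arrays where a gene had several.

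RNA came from the human lines U266, RPMI8226, IM-9 and KMS-11, 4 in all, each in 2 states. Parental cells were kept for 24 hours at 20% oxygen, and hypoxia-resistant (HR) sublines of the same lines were kept for 24 hours at 1% oxygen, with 2 arrays for each of the 8 groups. HR cells were not measured at 20% oxygen nor parental cells at 1%, so resistance and oxygen at harvest cannot be told apart. The labels list all 4 as myeloma lines, although IM-9 is widely described as a B lymphoblastoid line transformed by Epstein-Barr virus. No label says how the HR sublines were derived, whether they are clones, or whether the 2 arrays of a group were separate cultures, so p-values measure only the spread between these arrays, which may be technical. A lower value in such bulk RNA does not tell fewer expressing cells from less RNA per cell.

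The table holds no detection calls, so its median, 6.27, served as the floor, a choice made after the values were seen: where 1 group's mean lay below it, the fold is a lower bound with that group set at 6.27, and where both lay below it no fold is given. Markers were read on the same log2 intensity scale. Of 8 plasma cell markers, 6 or 7 lay above the table's median in every group. CD38 was below it in KMS-11, U266 and IM-9, and SLAMF7 was below it in RPMI8226 and KMS-11. Of 7 measured B cell markers, 7 lay above the median in IM-9 in both states against 2 to 5 in the other lines. In IM-9 HR cells 4 of the 7 fell (CD22, CD79A, BLK and CIITA), against 21.3% of all tested genes. Of 7 myeloid markers, 0 lay above the median in any group. Of 8 T and NK cell markers, 1 or 2 did in each group, NKG7 in all of them. The summed stromal marker intensity was 557 to 575 in parental U266 and 1250 to 1290 in U266 HR cells. There 1 of 4 tested markers, THY1, rose (all genes 9.68%), from 7.38 to 9.75. COL1A1, COL3A1 and FBN1 did not pass in U266. Of 9 measured low-oxygen response genes, 9 rose in U266 (all genes 9.68%), 9 in RPMI8226 (10.7%), 8 in KMS-11 (2.44%) and 7 in IM-9 (14.4%). ANKRD37 fell in IM-9. The design text also mentions RNA of bone marrow stromal cells, which the sample labels do not. The part of these markers in the NF-kB values was not tested.

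The promoters of 6 of the 9 members with a window in the RefSeq table (GRCh38.p14) held a match to the 10-base NF-kB consensus on either strand. Windows ran from 250 bases before to 50 after an annotated start, and RELB had none in the table. The same consensus was found in 13.3% of 27305 genes and in 11.3% of 35116 windows. The 30-base runs below are printed 5′ to 3′ on the gene's strand, with the matching bases in capitals, to show where the pathway's DNA motif occurs near its own genes. A match is a description of the sequence, and binding was not measured.
NFKBIA, chr14:35404811-35404840, minus strand: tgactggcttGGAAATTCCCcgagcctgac
NFKB1, chr4:102501300-102501329, plus strand: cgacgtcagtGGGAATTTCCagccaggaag
NFKB2, chr10:102394462-102394491, plus strand: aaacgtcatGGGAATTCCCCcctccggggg
NFKB2, chr10:102394490-102394519, plus strand: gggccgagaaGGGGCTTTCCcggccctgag
NFKB2, chr10:102395674-102395703, plus strand: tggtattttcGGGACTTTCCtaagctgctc
TNFAIP3, chr6:137867188-137867217, plus strand: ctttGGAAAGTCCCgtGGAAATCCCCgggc
TRAF3, chr14:102777406-102777435, plus strand: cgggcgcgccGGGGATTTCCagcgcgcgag
BIRC3, chr11:102317275-102317304, plus strand: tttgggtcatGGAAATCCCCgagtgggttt
BIRC3, chr11:102317339-102317368, plus strand: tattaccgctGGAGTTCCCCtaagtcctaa

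The TNFAIP3 run holds 2 matches side by side, the first starting 67 bases before the annotated start. The first NFKB2 run holds 2 overlapping matches, and the NFKBIA match starts 81 bases before the start. NFKB2 had 1 more match, in its furthest downstream window, which is not printed. The windows of CCL3, TRAF1 and MAP3K14 held 0 matches, which says only that these letters are not in these windows. For comparison with the NFKBIA run, the 250 bases before the first annotated CCL3 start are printed. Among the measured members, CCL3 had the widest range over the parental lines.
CCL3, chr17:36090144-36090393, minus strand: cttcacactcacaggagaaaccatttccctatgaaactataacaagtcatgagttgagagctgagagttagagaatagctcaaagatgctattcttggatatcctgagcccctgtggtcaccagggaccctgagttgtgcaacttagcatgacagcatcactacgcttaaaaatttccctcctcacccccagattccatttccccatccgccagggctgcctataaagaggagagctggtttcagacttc

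The first question was how the pathway's genes stood in the 4 parental lines. The order of the lines differed between genes. Parental U266 was highest for NFKBIA and CCL3, IM-9 was highest for NFKB1, TNFAIP3 and TRAF1, and RPMI8226 was lowest for NFKBIA, NFKB2, TNFAIP3 and TRAF3. The level differed between parental lines for 8 of 9 members (limma F test with Benjamini-Hochberg adjustment, threshold 0.05), all but RELB, whose adjusted p was 0.651. Differences between these lines were the rule, since 94.3% of all tested genes passed the same test. Between pairs of parental lines, 6 of 9 members differed for RPMI8226 and KMS-11 (76.9% of all genes), 8 for RPMI8226 and U266 (79.1%), 7 for RPMI8226 and IM-9 (73.7%), 6 for KMS-11 and U266 (66%), 4 for KMS-11 and IM-9 (63.8%) and 7 for U266 and IM-9 (66.5%). IM-9 was the higher line in all 7 of its differences from RPMI8226 and in all 4 from KMS-11. The shares above are for either direction, and no share of all genes by direction was computed. These directions are thus a description only. Parental means of TRAF1 in RPMI8226 (5.68) and KMS-11 (5.29) and of CCL3 in RPMI8226 (6.2) lay below the table's median.

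**Figure D1:**
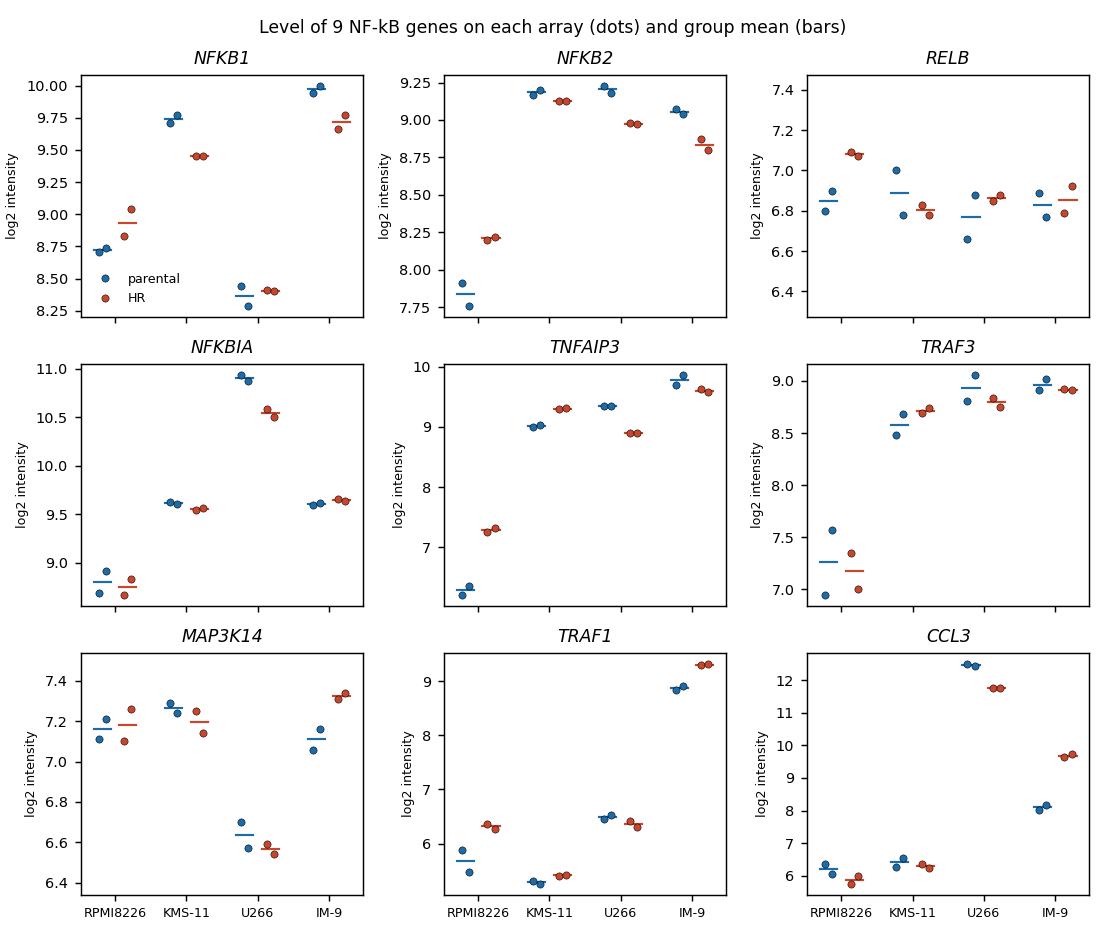
Level of the 9 measured genes on each array (y axis, log2 intensity, scaled per panel) in the 4 lines (x axis), with parental cells in blue, HR cells in red, dots for arrays and bars for the mean of 2 arrays. RPMI8226 sits at the bottom of the TNFAIP3 panel in both states, U266 at the top of the CCL3 panel (11.75 to 12.51), and IM-9 at the top of the TRAF1 panel (8.83 to 9.32).

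The second question was what differed between HR and parental cells of each line. No common direction appeared. In RPMI8226, 3 of 9 members rose (NFKB2, TNFAIP3 and TRAF1), against 10.7% of all tested genes, and 0 fell, against 15.3%. Of these, TRAF1 started below the table's median. In KMS-11, 1 rose (TNFAIP3; 2.44% of all genes) and 1 fell (NFKB1; 5.83%). In U266, 0 rose (9.68% of all genes) and 4 fell (NFKBIA, NFKB2, TNFAIP3 and CCL3; 8.42%). In IM-9, 3 rose (CCL3, TRAF1 and MAP3K14; 14.4%) and 2 fell (NFKB1 and NFKB2; 21.3%). Leaving out 1 array of the line gave 0 members in KMS-11 whichever array it was, 2 in U266 without parental array 1 or HR array 2, and 3 in IM-9 without either HR array. The genes called in all fell from 1045 to between 348 and 401 in KMS-11, and from 2287 to 1425 without U266 HR array 1, 1461 without parental array 1 and 1476 without HR array 2. The median HR minus parental difference of the 9 members was 0.21 in RPMI8226, 0.02 in IM-9, -0.07 in KMS-11 and -0.14 in U266, and that of all tested genes was -0.01, -0.06, -0.02 and -0.01 in the same order.

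**Figure D2:**
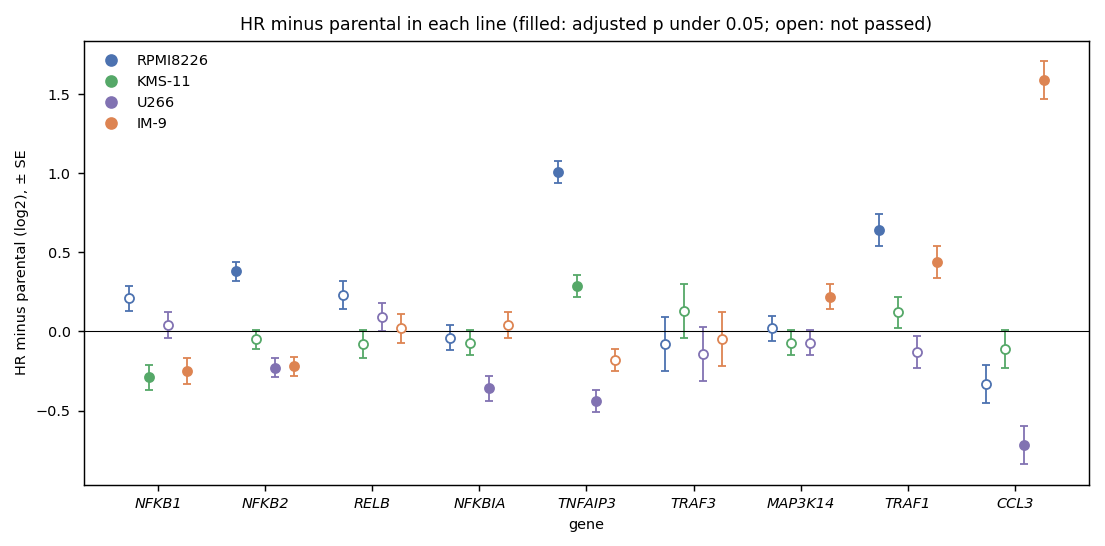
HR minus parental difference (y axis, log2, with standard errors from the fit) of the 9 genes (x axis) in each line, as colours, with filled dots for values past the adjusted p threshold and open dots for the others. CCL3 in IM-9 (1.59) and TNFAIP3 in RPMI8226 (1.01) stand highest, and CCL3 in U266 (-0.72) lowest.

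Whether the HR difference itself varied between lines was tested with an F test over the 4 differences. It passed for 6 of 9 members, against 45.4% of all tested genes. These were TNFAIP3, CCL3, NFKB2, TRAF1, NFKB1 and NFKBIA. Between pairs of lines, the difference varied for 4 of 9 members in RPMI8226 and KMS-11 (17.6% of all genes), 3 in RPMI8226 and U266 (25.6%), 4 in RPMI8226 and IM-9 (31.5%), 2 in KMS-11 and U266 (14.1%), 2 in KMS-11 and IM-9 (17.5%) and 3 in U266 and IM-9 (30.3%). Among the members that passed, RPMI8226 had the more positive difference in all 4 against KMS-11, all 3 against U266 and 3 of 4 against IM-9. TRAF1, counted against KMS-11 and U266, started below the table's median in RPMI8226. No share of all genes by direction was computed for these pairs. These pairs share lines, so their counts are not independent.

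Averaged over the 4 lines, with the line as the unit, 0 of 9 members passed, as did 0% of all 12639 tested genes, of which 793 had an unadjusted p under 0.05 in limma. No member was among these 793. TRAF1 came closest, with an HR minus parental difference of 0.27 ± 0.14 on the log2 scale (SE, n = 4 lines, limma adjusted p = 0.764), higher in 3 lines and lower in 1. Of the lines where it was higher, both means in KMS-11 and the parental mean in RPMI8226 lay below the table's median. TNFAIP3 averaged 0.17 ± 0.23 and CCL3 0.11 ± 0.37, with the lines split in direction. With the array number as a block, 176 genes passed, in a fit of single arrays where the line was no longer the unit. That fit counts arrays of the same line as separate units, so its count is no test of a change shared by the lines.

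Among the subunits, NFKB1 encodes the precursor of the DNA-binding partner of RELA. Its log2 intensity on the parental arrays was 8.71 and 8.74 in RPMI8226, 9.71 and 9.77 in KMS-11, 8.44 and 8.29 in U266, and 9.94 and 10.0 in IM-9. IM-9 and KMS-11 were high and U266 low, no 2 lines overlapped, and all neighbours in the order IM-9, KMS-11, RPMI8226, U266 differed past the threshold. U266 lay 1.6 ± 0.08 below IM-9, a 3.04-fold difference. HR arrays read 8.83 and 9.04 in RPMI8226, 9.45 and 9.45 in KMS-11, 8.41 and 8.4 in U266, and 9.66 and 9.77 in IM-9. NFKB1 was thus lower in HR cells of the 2 lines where it was high, without overlap between states. It fell by 0.29 ± 0.08 in KMS-11 (SE, n = 2 arrays a group, limma adjusted p = 0.0364) and by 0.25 ± 0.08 in IM-9 (limma adjusted p = 0.0221). The difference was 0.21 ± 0.08 in RPMI8226 (adjusted p = 0.0675, which passed at 0.0323 to 0.0496 with a stricter filter, quantile normalization or an intensity trend) and 0.04 ± 0.08 in U266. The RPMI8226 value moved between 0.1 (0.423, without HR array 2) and 0.311 (0.0176, without HR array 1). The KMS-11 call was lost without any 1 KMS-11 array (adjusted p up to 0.197), without either U266 HR array (0.0536), with no filter (0.0673) and with quantile normalization (0.0524). The IM-9 call was lost without parental array 2 (0.0922) or HR array 1 (0.154) and from the IM-9 arrays alone (0.0756).

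NFKB2 encodes the precursor of the alternative branch and is a target of the pathway. Its parental values were 7.91 and 7.76 in RPMI8226, 9.17 and 9.2 in KMS-11, 9.23 and 9.18 in U266, and 9.07 and 9.04 in IM-9. RPMI8226 stood apart on the low side, 1.37 ± 0.06 below U266 or 2.59-fold, while U266 and KMS-11 did not differ past the threshold, nor did KMS-11 and IM-9. HR arrays read 8.2 and 8.22 in RPMI8226, 9.13 and 9.13 in KMS-11, 8.98 and 8.97 in U266, and 8.87 and 8.8 in IM-9. The states did not overlap in any line, and the direction was up in RPMI8226 and down in the others. NFKB2 rose by 0.38 ± 0.06 in RPMI8226, 1.3-fold (limma adjusted p = 0.000642), fell by 0.23 ± 0.06 in U266 (0.0199) and fell by 0.22 ± 0.06 in IM-9 (0.0149). In KMS-11 the difference was -0.05 ± 0.06 (0.689). The RPMI8226 difference exceeded each of the other 3, by 0.42 to 0.61 ± 0.09 (limma adjusted p between 0.000245 and 0.00505). The U266 call was lost without any 1 U266 array, with adjusted p between 0.0624 and 0.122, and the IM-9 call without parental array 1 (0.0684) or HR array 2 (0.105) and from the IM-9 arrays alone (0.0867).

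RELB encodes the partner of the processed NFKB2 product. Its 16 values lay between 6.66 and 7.09, close to the table's median of 6.27. The parental values were 6.8 and 6.9 in RPMI8226, 7 and 6.78 in KMS-11, 6.66 and 6.88 in U266, and 6.89 and 6.77 in IM-9. All 4 lines overlapped. The parental range over lines, 0.12, was wider than that of only 0.396% of tested genes. HR arrays read 7.09 and 7.07 in RPMI8226, 6.83 and 6.78 in KMS-11, 6.85 and 6.88 in U266, and 6.79 and 6.92 in IM-9. RPMI8226 HR cells were the highest group, above their parental arrays without overlap, at a difference of 0.23 ± 0.09 that did not pass (limma adjusted p = 0.0786).

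Among the inhibitors, NFKBIA encodes IkB alpha, which holds NF-kB in the cytoplasm and is resynthesised when the pathway fires. Parental arrays read 8.69 and 8.91 in RPMI8226, 9.63 and 9.61 in KMS-11, 10.94 and 10.87 in U266, and 9.6 and 9.62 in IM-9. U266 was clearly highest, 4.32-fold above RPMI8226 (2.11 ± 0.08) and 2.44-fold above KMS-11, and KMS-11 and IM-9 overlapped (difference 0.01 ± 0.08). HR arrays read 8.67 and 8.83 in RPMI8226, 9.54 and 9.56 in KMS-11, 10.59 and 10.5 in U266, and 9.66 and 9.64 in IM-9. In U266 the HR arrays lay below the parental arrays without overlap and NFKBIA fell by 0.36 ± 0.08, 1.28-fold (limma adjusted p = 0.00548). It stayed the highest of the 4 lines. The differences in RPMI8226, KMS-11 and IM-9 were -0.04, -0.07 and 0.04, each ± 0.08, and did not pass. The U266 difference was 0.4 ± 0.11 below that of IM-9 (limma adjusted p = 0.0142). The U266 call was lost without parental array 1 (0.0543) or HR array 2 (0.0597).

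TNFAIP3 encodes A20, a ubiquitin-editing enzyme that shuts the pathway off and that NF-kB itself induces. Parental values were 6.21 and 6.35 in RPMI8226, 9 and 9.03 in KMS-11, 9.34 and 9.34 in U266, and 9.7 and 9.87 in IM-9. RPMI8226 was near the table's median and far below the rest, 11.4-fold below IM-9 (3.5 ± 0.07 on the log2 scale) and 6.63-fold below KMS-11. All neighbours in the order IM-9, U266, KMS-11, RPMI8226 differed past the threshold. HR arrays read 7.26 and 7.32 in RPMI8226, 9.29 and 9.31 in KMS-11, 8.9 and 8.9 in U266, and 9.63 and 9.58 in IM-9. No line's states overlapped. The HR arrays were higher in RPMI8226 and KMS-11 and lower in U266 and IM-9.

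TNFAIP3 rose 2.01-fold in RPMI8226, by 1.01 ± 0.07 (SE, n = 2 arrays a group, limma adjusted p = 4.37e-07), and by 0.29 ± 0.07 in KMS-11 (0.0235). It fell by 0.44 ± 0.07 in U266, 1.36-fold (0.000684). In IM-9 the difference was -0.18 ± 0.07 (0.0632), and it passed with a stricter filter (0.0457), quantile normalization (0.0401) or an intensity trend (0.0429). It moved between -0.092 (0.364, without parental array 2) and -0.268 (0.0196, without parental array 1). Of the 6 pairs of lines, 5 differed in this HR effect, the widest being RPMI8226 and U266 (1.44 ± 0.1, limma adjusted p = 4.68e-07), and U266 and IM-9 did not pass. The range over lines was 3.5 in parental cells and 2.32 in HR cells. Of the 9 members, 5 had a narrower range in HR cells, against 51.3% of all tested genes. The KMS-11 call was lost without any 1 KMS-11 array, with adjusted p between 0.102 and 0.138.

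Among NIK and its regulators, TRAF3 encodes the adaptor that brings NIK to its degradation complex. Its parental values were 6.95 and 7.57 in RPMI8226, 8.48 and 8.68 in KMS-11, 8.81 and 9.06 in U266, and 8.91 and 9.02 in IM-9. RPMI8226 was low, 3.25-fold below IM-9 (1.7 ± 0.17), and the other 3 lines did not differ past the threshold from each other. HR arrays read 7.35 and 7 in RPMI8226, 8.69 and 8.74 in KMS-11, 8.84 and 8.75 in U266, and 8.92 and 8.91 in IM-9. The states overlapped in every line except KMS-11, and the differences of -0.14 to 0.13 (each ± 0.17) did not pass.

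MAP3K14 encodes NIK, whose abundance is controlled mainly through protein breakdown. Parental values were 7.11 and 7.21 in RPMI8226, 7.29 and 7.24 in KMS-11, 6.7 and 6.57 in U266, and 7.06 and 7.16 in IM-9. U266 was the low line, 0.63 ± 0.08 or 1.55-fold below KMS-11, and the other 3 did not differ past the threshold. HR arrays read 7.1 and 7.26 in RPMI8226, 7.25 and 7.14 in KMS-11, 6.59 and 6.54 in U266, and 7.31 and 7.34 in IM-9. In IM-9 the HR arrays lay above the parental arrays, and MAP3K14 rose by 0.22 ± 0.08, 1.16-fold (limma adjusted p = 0.0386). This call was lost without the filter on low values (0.0652), with an intensity trend (0.0696), from the IM-9 arrays alone (0.096) and without any 1 IM-9 array except parental array 2 (up to 0.19). It was also lost without either parental KMS-11 array (0.0507) or either U266 HR array (0.0505). The other lines overlapped between states.

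Of the targets, TRAF1 encodes a survival adaptor of TNF receptors that lymphoid cells induce through NF-kB. Parental values were 5.89 and 5.48 in RPMI8226, 5.32 and 5.26 in KMS-11, 6.45 and 6.53 in U266, and 8.83 and 8.9 in IM-9. IM-9 stood far above the myeloma lines, at least 6.02-fold over KMS-11 and RPMI8226, which were both below the table's median (means 5.29 and 5.68). HR arrays read 6.37 and 6.27 in RPMI8226, 5.41 and 5.42 in KMS-11, 6.41 and 6.31 in U266, and 9.29 and 9.32 in IM-9. The HR arrays were higher without overlap in every line except U266, where they were lower. TRAF1 rose 1.36-fold in IM-9, by 0.44 ± 0.1 (limma adjusted p = 0.00505). In RPMI8226 it rose from a mean of 5.68, below the median, to 6.32, just above it, with a fitted difference of 0.64 ± 0.1 (0.000524) and a lower bound of 1.04-fold. The differences of 0.12 ± 0.1 in KMS-11, where both means were below the median, and -0.13 ± 0.1 in U266 did not pass. In U266 the HR difference was lower than in RPMI8226 by 0.77 ± 0.14 (limma adjusted p = 0.00179) and lower than in IM-9 by 0.57 ± 0.14 (0.00991).

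CCL3 encodes a chemokine (MIP-1 alpha) that draws leukocytes and, when released by myeloma cells, stimulates bone-resorbing osteoclasts. Parental values were 6.35 and 6.04 in RPMI8226, 6.27 and 6.55 in KMS-11, 12.51 and 12.44 in U266, and 8.03 and 8.18 in IM-9. U266 was bright, IM-9 intermediate, and RPMI8226 and KMS-11 were near the table's median and overlapped. U266 lay at least 74-fold above RPMI8226, whose mean of 6.2 was below the median, and 20.7-fold above IM-9 (4.38 ± 0.12). This parental range was wider than that of 99.7% of tested genes.

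HR arrays for CCL3 read 5.75 and 5.98 in RPMI8226, 6.37 and 6.23 in KMS-11, 11.76 and 11.75 in U266, and 9.63 and 9.75 in IM-9. U266 and IM-9, the lines where it was bright, moved in opposite directions without overlap, and both means of KMS-11 (6.41 and 6.3) lay just above the median. CCL3 rose 3-fold in IM-9, by 1.59 ± 0.12 (limma adjusted p = 6.28e-07), and fell 1.65-fold in U266, by 0.72 ± 0.12 (0.000757). The effects in these lines differed by 2.31 ± 0.17 (limma adjusted p = 6.93e-07). In RPMI8226 the difference was -0.33 ± 0.12 (0.0556, and 0.0259 to 0.0438 under the 3 alternatives that also moved TNFAIP3 in IM-9 past the threshold), with both means below the median. It moved between -0.178 (0.372, without parental array 1) and -0.481 (0.0219, without parental array 2). The KMS-11 difference was -0.11 ± 0.12 (0.631). Probe sets shared by CCL3 and its near-identical copies CCL3L1 and CCL3L3 gave -0.92 in U266 and 1.3 in IM-9, the same directions, and 0.21 in RPMI8226 and 0.11 in KMS-11, the opposite ones. Signal of the copies cannot be told apart from that of CCL3. Of 7 myeloid markers, 0 were above the table's median in IM-9 HR cells, where the summed B cell marker intensity was 4780 to 4810 against 5780 to 5930 in parental cells.

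The pathway around these genes was read from 6 lists, whose 75 tested genes were no members. Of these, 14 rose and 12 fell in RPMI8226 (18.7% and 16%, against 10.7% and 15.3% of all genes), and 5 and 3 in KMS-11 (6.67% and 4%, against 2.44% and 5.83%). In U266, 10 rose and 10 fell (13.3% each, against 9.68% and 8.42%), and in IM-9 20 and 17 (26.7% and 22.7%, against 14.4% and 21.3%). The shares that fell in RPMI8226, KMS-11 and IM-9 were near those of all genes. Their median differences were 0.01, 0, 0.02 and -0.07, next to -0.01, -0.02, -0.01 and -0.06 over all genes. The genes given below are those with the largest HR changes or the widest parental range of each list.

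**Figure D3:**
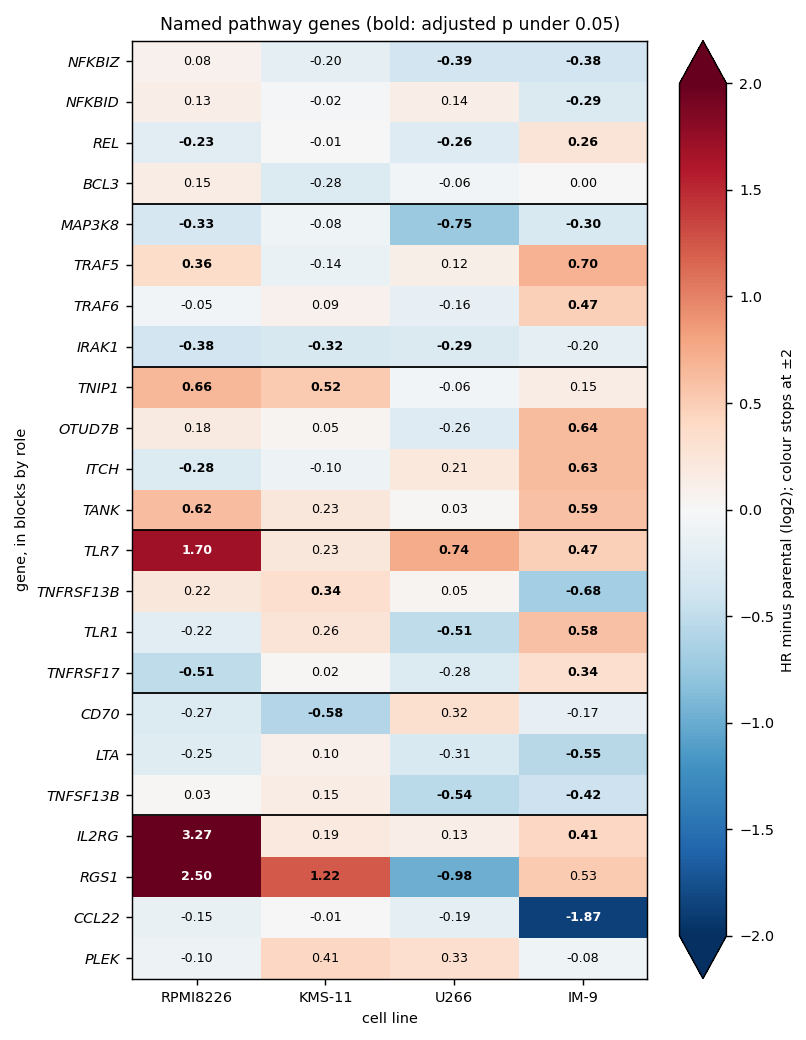
HR minus parental difference (log2, printed and coloured, with the colour stopping at 2 in either direction) of 23 genes of the pathway (rows, in blocks by role) in the 4 lines (columns), in bold where the adjusted p passed. IL2RG (3.27) and RGS1 (2.5) in RPMI8226 are the strongest fitted rises, both from parental means below the table's median of 6.27, and CCL22 in IM-9 (-1.87) the strongest fall.

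Of the 7 other Rel and IkB genes, 1 rose and 1 fell in RPMI8226 (all genes 10.7% and 15.3%), 0 changed in KMS-11 (2.44% and 5.83%), 1 rose and 2 fell in U266 (9.68% and 8.42%), and 2 rose and 4 fell in IM-9 (14.4% and 21.3%). REL, the c-Rel subunit of lymphoid cells, fell by 0.23 in RPMI8226 and 0.26 in U266 and rose by 0.26 in IM-9, all ± 0.07. NFKBIZ, an inducible nuclear IkB protein, fell by 0.39 ± 0.09 in U266 and by 0.38 ± 0.09 in IM-9. NFKBID fell by 0.29 ± 0.07 in IM-9. BCL3, a nuclear IkB protein that works with NFKB2 products, did not pass in any line. RELA rose in U266 and IM-9, by 0.25 and 0.23 ± 0.06, and was named after its values were seen.

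Of 14 tested kinases and adaptors, 1 rose and 4 fell in RPMI8226 (all genes 10.7% and 15.3%), 0 and 1 in KMS-11 (2.44% and 5.83%), 3 and 2 in U266 (9.68% and 8.42%), and 4 and 3 in IM-9 (14.4% and 21.3%). MAP3K8, the kinase bound to the NFKB1 precursor, fell in RPMI8226 (by 0.33 ± 0.08), U266 (by 0.75 ± 0.08) and IM-9 (by 0.3 ± 0.08), and was -0.08 in KMS-11. IRAK1, a kinase of Toll-like receptor signalling, fell in RPMI8226 (by 0.38 ± 0.07), KMS-11 (by 0.32 ± 0.07) and U266 (by 0.29 ± 0.07). In IM-9 it was -0.2 ± 0.07 and did not pass (limma adjusted p = 0.0521). Its HR difference did not vary past the threshold between lines (limma F test, adjusted p = 0.439). TRAF5 rose by 0.7 ± 0.08 in IM-9 and 0.36 ± 0.08 in RPMI8226, and TRAF6, the ubiquitin ligase downstream of Toll-like receptors, rose by 0.47 ± 0.09 in IM-9.

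Of 12 tested inhibitors, 5 rose and 0 fell in IM-9 (all genes 14.4% and 21.3%), 2 rose and 2 fell in RPMI8226 (10.7% and 15.3%), and 1 rose and 0 fell in each of KMS-11 (2.44% and 5.83%) and U266 (9.68% and 8.42%). TNIP1, which binds A20, rose in the 2 lines where TNFAIP3 rose, by 0.66 ± 0.08 in RPMI8226 and 0.52 ± 0.08 in KMS-11, and was -0.06 in U266 and 0.15 in IM-9. TANK rose by 0.62 ± 0.1 in RPMI8226 and 0.59 ± 0.1 in IM-9. OTUD7B, a deubiquitinase that acts on TRAF3, rose by 0.64 ± 0.09 in IM-9. ITCH, a ubiquitin ligase that works with A20, rose by 0.63 ± 0.07 in IM-9 and fell by 0.28 ± 0.07 in RPMI8226.

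Of 11 tested receptors, 2 rose and 1 fell in RPMI8226 (all genes 10.7% and 15.3%), 1 and 0 in KMS-11 (2.44% and 5.83%), 2 and 1 in U266 (9.68% and 8.42%), and 3 and 3 in IM-9 (14.4% and 21.3%). TLR7, an endosomal RNA sensor, rose by 0.47 ± 0.11 in IM-9, from 8.22 to 8.69. In RPMI8226 it rose from 5.19, below the median, to 6.88, at least 1.53-fold. In U266 it passed between 2 values below the median, 4.67 and 5.4. TNFRSF13B (TACI) fell by 0.68 ± 0.08 in IM-9 and rose by 0.34 ± 0.08 in KMS-11. The KMS-11 call was lost with the array number as a block (limma adjusted p = 0.0709). TNFRSF17 (BCMA), a plasma cell receptor that is also among the plasma cell markers, fell by 0.51 ± 0.1 in RPMI8226 and rose by 0.34 ± 0.1 in IM-9. TLR1 rose by 0.58 ± 0.14 in IM-9, and passed downward in U266 between 2 values below the median, 5.82 and 5.31. Of 4 tested ligands, 1 rose in RPMI8226 (all genes 10.7%). In KMS-11 1 fell (5.83%), in U266 1 fell (8.42%), and in IM-9 2 fell (21.3%). LTA, the lymphotoxin alpha gene, fell by 0.55 ± 0.1 in IM-9, and TNFSF13B (BAFF) fell there from 6.54 to 6.13, below the median, at least 1.21-fold. In U266 TNFSF13B passed downward between 2 values below the median, 6.2 and 5.66. CD70 fell by 0.58 ± 0.11 in KMS-11.

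Of 27 further targets tested, 7 rose and 4 fell in RPMI8226 (all genes 10.7% and 15.3%), 3 and 1 in KMS-11 (2.44% and 5.83%), 3 and 4 in U266 (9.68% and 8.42%), and 6 and 5 in IM-9 (14.4% and 21.3%). IL2RG, the common cytokine receptor chain, was low in parental RPMI8226 (6.26) and high in the other parental lines (11.7 to 12.05), and rose at least 9.51-fold to 9.52 in RPMI8226 HR cells. RGS1, a regulator of chemokine receptor signalling, rose from 4.85, below the median, to 7.35 in RPMI8226, at least 2.11-fold. It rose by 1.22 ± 0.25 in KMS-11 and fell by 0.98 ± 0.25 in U266, and TNFAIP3 took the same directions in these 3 lines. In IM-9 the signs were opposite, 0.53 ± 0.25 for RGS1 and -0.18 ± 0.07 for TNFAIP3, and neither passed. CCL22, a chemokine for T cells, fell by 1.87 ± 0.1 in IM-9, where CCL3 rose. PLEK was bright in IM-9 (11.14) and dim in KMS-11 (4.95) and did not pass in any line. In parental cells, 12 of these 27 genes were highest in IM-9, against 18.8% of all tested genes. Some of them, such as VCAM1, BCL2A1 and EBI3, had means above 6.27 only in IM-9. The filter on low values kept these genes through that line, so the count does not show that the targets favour IM-9. The summed B cell marker intensity was also highest in IM-9, and its part in these levels was not tested.

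The calls for NFKBIZ, IRAK1, TLR1, TNFSF13B and RGS1 in U266, for IRAK1, TNFRSF13B, CD70 and RGS1 in KMS-11, for REL, TRAF5 and ITCH in RPMI8226, and for REL, MAP3K8, TNFRSF17, TLR1, TLR7 and TNFSF13B in IM-9 were each lost without some 1 array of the line, as was REL in U266. In that fit the lone array left in a group is assumed to vary like the other groups.

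Over the 16 arrays, the tested genes most like each member were ranked by Pearson correlation. The arrays fall into 4 lines and array r was 0.915 to 0.948 between lines and 0.984 or more within a line, so the 16 points are not independent. TRAF1 was most like MEF2C (r = 0.99, n = 16 arrays) and ERAP2 (0.986). TNFAIP3 was most like CFAP68 (0.985) and ANXA6 (0.984), NFKBIA like MAPKBP1 and EIF5 (both 0.985), NFKB1 like DCUN1D5 (0.98), NFKB2 like AGFG1 (0.989), CCL3 like RNF34 (0.989), TRAF3 like TCEAL1 (0.986) and MAP3K14 like SIK3 (0.972). RELB, with little spread, reached 0.804 at most (DANT2). Between members, TNFAIP3 followed TRAF3 (0.941) and NFKB2 (0.926), NFKBIA followed CCL3 (0.902), and MAP3K14 ran opposite to CCL3 (-0.782).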

How the data were processed

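Log2 intensities of 33297 probe sets, made with Affymetrix Expression Console 1.3.0 per the submitters' processing notes, were used as deposited; the normalization method is not given in the sources used here. Array medians were 6.22 to 6.34. The design text names stromal cells, which the labels do not, and another array version than the platform table, but all 21214 identifiers of that table were found. Of these probe sets, 19460 had 1 symbol and 1754 several (not used), and 12083 were outside that table; 19429 of the 19460 matched RefSeq (GRCh38.p14). Genes above 6.27 (the table's median) on at least 2 arrays were tested with limma 3.58.1 in R 4.3.3 (lmFit, eBayes, 2-sided, Benjamini-Hochberg over 12639 genes, threshold 0.05), 8 groups in 1 fit with 8 residual degrees of freedom. Across lines, the fit used the 8 means per line and state, blocked by line. The script was tested on simulated data. All members were named, and from each list up to 3 genes with the largest HR change past the threshold without overlap and 2 with the widest parental range. Members and lists were chosen with earlier results of these data known. The number of arrays limits the precision. Alternatives were no or a stricter filter, quantile normalization, an array-number block, mean probe sets, an intensity trend, each line's own arrays, and leaving out each array or line.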

Additional observations from a re-analysis of the deposited data

Results flagged for a closer look

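The HR minus parental difference varied between the 4 lines for 6 of 9 members by the F test in limma, against 45.4% of all tested genes. The adjusted p was 1.08e-06 for TNFAIP3, 1.46e-06 for CCL3, 0.000334 for NFKB2, 0.00366 for TRAF1, 0.00584 for NFKB1 and 0.0375 for NFKBIA. TNFAIP3 and CCL3 each had called values in both directions, and so did NFKB2.

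Among the 23 pathway genes picked by largest HR change or widest parental range, 21 also varied. RELA, named after its values were seen, varied too (limma F test, adjusted p = 0.0244). The limma adjusted p was 3.72e-10 for IL2RG, 1.04e-06 for CCL22, 4.92e-05 for TLR7, 5.13e-05 for RGS1, 6.5e-05 for ITCH, 8.32e-05 for TNFRSF13B, 0.000563 for TRAF5, 0.000567 for OTUD7B and 0.000927 for TNIP1. It was 0.00194 for TNFRSF17, 0.00204 for MAP3K8, 0.00252 for CD70, 0.00253 for TLR1, 0.00285 for REL, 0.00478 for TRAF6, 0.00781 for NFKBID and 0.00963 for TANK. It was 0.0158 for LTA, 0.0184 for NFKBIZ, 0.0213 for TNFSF13B and 0.0413 for PLEK. Most of these genes were picked for a large change in some line, so this share is no measure of the pathway.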

How the results depend on the processing

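Members called in RPMI8226 numbered 3, and 5 with the stricter filter, quantile normalization or an intensity trend (NFKB1 and CCL3 added; RELB was not tested with that filter), and 3 to 4 without 1 array. In KMS-11 there were 2, against 1 with no filter or with quantile normalization and 0 to 2 without 1 array, and over all genes 1045 against 348 to 1208 without 1 array. In U266 there were 4, against 2 to 4 without 1 array, and over all genes 2287 against 1425 to 2530. In IM-9 there were 5, against 2 from its own arrays alone and 3 to 6 without 1 array, and over all genes 4506 against 2843 from its own arrays. Sign changes occurred only in differences that had not passed. Without 1 array, these ranged in RPMI8226 from -0.065 to 0.097 (MAP3K14), -0.154 to 0.066 (NFKBIA) and -0.391 to 0.226 (TRAF3), and in KMS-11 from -0.194 to 0.028 (RELB) and -0.25 to 0.03 (CCL3). In U266 they ranged from -0.018 to 0.202 (RELB) and -0.028 to 0.115 (NFKB1), and in IM-9 from -0.04 to 0.087 (RELB) and -0.107 to 0.007 (TRAF3). Across lines, TNFAIP3 was -0.11 without RPMI8226, NFKB2 0.036 without U266 and 0.032 without IM-9, and CCL3 -0.388 and MAP3K14 -0.04 without IM-9. The cause of each change was not tested, except that fewer arrays were fitted.

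With the array number as a replicate block, the members called were the same 14 values (3, 2, 4 and 5 by line). Across lines 176 genes passed against 0, in a fit of single arrays where the line was no longer the unit. Same-numbered arrays correlated at 0.2, 0.07, -0.05 and 0.11 in their deviations. These low values cannot tell whether same-numbered arrays were handled together, and the main fit did not treat them as pairs. The calls that held in every setting run were TNFAIP3, NFKB2 and TRAF1 in RPMI8226, TNFAIP3 and CCL3 in U266, and CCL3 and TRAF1 in IM-9. TRAF1 in RPMI8226 started below the table's median, so its lower bound was 1.04-fold.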
